A study of Mus musculus with 2 samples.

Results

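The replication-dependent histone genes of the mouse were followed through dividing and non-dividing cells of MC38 tumours. Every gene of the deposited feature list was taken whose symbol begins with Hist1h, Hist2h, Hist3h or Hist4h, which gave 67 of 32285 genes: 6 of linker histone H1, 18 of H2A, 18 of H2B, 12 of H3 and 13 of H4. These genes supply the histones that package newly copied DNA. As background, they lie in clusters, most have no intron, and their RNA builds up while DNA is being copied and is broken down when copying stops. Their RNA usually ends just after a short hairpin, the histone stem-loop, which is bound by the protein Slbp, in place of the poly(A) tail of other messages. A polyadenylated form of some of them exists as well, and libraries primed on poly(A), such as these, need not sample the 2 forms alike.

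MC38 is a colon carcinoma line of the mouse, and its tumours were taken on day 21, sorted for immune cells and sequenced by droplet single-cell RNA-seq. There is 1 group with 2 replicate libraries, and the labels give no genotype, strain, treatment, age or sex. Whether the replicates are separate animals is not stated, so every p-value below measures only how far differences varied between these 2 libraries, which may be technical. A word in the deposited file names differs between the libraries, is not explained in the labels and was not used.

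The libraries held 5688000 and 5862342 UMIs (molecules counted once each) in 2749 and 2937 cell barcodes and shared 0 barcode sequences. After leaving out barcodes under 300 detected genes or with 10% or more mitochondrial UMIs, 2388 and 2837 were kept. Cd3 T cell barcodes had at least 1 UMI of Cd3d, Cd3e or Cd3g, the signalling chains of the T cell receptor. C1q macrophage barcodes had at least 3 UMIs of C1qa, C1qb and C1qc (complement C1q), at least 1 of Tyrobp (a myeloid signalling adaptor) and none of Cd3. Ptprc-negative barcodes had 0 UMIs of Ptprc, the leukocyte antigen CD45, 0 of Tyrobp, under 3 of C1q and none of Cd3. Each class was split by the proliferation genes Mki67, whose product coats dividing chromosomes, and Top2a, a DNA topoisomerase. Barcodes with 0 UMIs of both are called marker-free and those with 1 or more marker-positive. A marker-free barcode is not shown to be a resting cell, since a shallow barcode can miss both genes.

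In replicate 1 there were 538 marker-free and 148 marker-positive Ptprc-negative barcodes, 853 and 157 macrophage barcodes, and 195 and 52 T cell barcodes. In replicate 2 the counts were 689 and 303, 646 and 94, and 490 and 118. Of the T cell markers, 10 of 10 were found in marker-free T cell barcodes, at a summed 973 and 1108 CPM (UMIs of a gene per 1000000 UMIs of the barcodes summed) in replicates 1 and 2, against 93.8 and 232 CPM in macrophage barcodes. The same T cell barcodes also held 8 of 8 macrophage markers at 16012 and 4057 CPM, against 25132 and 5738 CPM in macrophage barcodes. Their share in the T cell values below was not tested beyond leaving out T cell barcodes with 3 or more C1q UMIs. Of the epithelial markers, 1 of 4 was found in marker-free Ptprc-negative barcodes, at 0 and 1.34 CPM, while fibroblast markers (6 of 6) stood there at 1512 and 1938 CPM and macrophage markers (8 of 8) at 499 and 156 CPM. By the labels only immune cells were sorted, so this class goes against them.

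The stem-loop was looked for in the annotated transcript of each gene (GENCODE vM21, build GRCm38), because it separates transcripts that stop at the hairpin from longer ones. It was present, with at most 1 mismatch in its 16 bases, in 44 of 67 genes. The other 23 are not shown to lack it, since bases beyond the annotated end were not searched. Some of their annotated transcripts are short, such as those of Hist1h4k (312 bases) and Hist1h2bn (381 bases). The form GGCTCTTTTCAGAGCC was in 26 genes, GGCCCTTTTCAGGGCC in 7 and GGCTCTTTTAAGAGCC in 6. The DNA-strand sequences of 6 genes that lead the results follow, with the stem-loop in capitals.
Hist1h2ap: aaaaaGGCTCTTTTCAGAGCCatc
Hist1h2ae: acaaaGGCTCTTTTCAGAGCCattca
Hist1h1e: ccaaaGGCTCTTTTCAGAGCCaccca
Hist1h4d: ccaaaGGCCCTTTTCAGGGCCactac
Hist1h4i: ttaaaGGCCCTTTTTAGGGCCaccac
Hist1h3c: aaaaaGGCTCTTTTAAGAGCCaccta
The annotated transcript of Hist1h2ap stops 3 bases after the stem-loop and that of Hist1h3c 74 bases after it. That of Hist1h2ae runs on for 151 bases, that of Hist1h4i for 330, that of Hist1h4d for 770 and that of Hist1h1e for 1153. Of the 44 genes with a stem-loop, 22 have an annotated end within 100 bases of it and 22 have a longer one.

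Many members are near copies of each other, which matters for the counts of single genes. In 23 of 67 genes, at least 50% of the 50-base words in the last 150 bases of the annotated transcript occur in another gene. In 29 genes none do. An end, here and below, is that of the annotated transcript, which need not be where the RNA ends. Hist1h2ap (chr13:21833026-21833507, minus strand, 1 exon) shares 100% of these words, mainly with Hist1h2ao, and overlaps an exon of Gm44466 on the other strand. Its counts and those of its H2A neighbours are therefore uncertain as to gene, also because the treatment of shared reads in the authors' counting is not given in the sources used here. Hist1h1e (chr13:23620629-23622558, minus strand) ends inside exons of Hist1h2be and Gm11398 on the same strand, and Hist2h2aa1 ends in Gm20634, so these are uncertain too. In all, 7 members overlap an exon of another gene on the same strand. Among them are Hist3h2a (with Trim17) and Hist2h2bb (with Gm42743), although 0% of the words at their ends are shared. Hist1h1b (chr13:21779883-21780625), Hist1h2ae (chr13:23570517-23571220), Hist1h4d (chr13:23581598-23582735), Hist1h4i (chr13:22040636-22041362) and Hist1h1c (chr13:23738808-23740367), each with 1 exon, share 0% of the words at their ends.

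RefSeq promoters (build GRCm38.p6, 250 bases before the start) were matched for 62 of 67 genes, because many members were higher in the same barcodes. For 43 of these, the 30 transcribed bases checked after the RefSeq start lie in a GENCODE transcript of the gene. The start of Hist1h1d lies 1770 bases from that in GENCODE. CCAAT, the site of the factor NF-Y, was found on either strand in 82.3% of the histone promoters against 33.9% of all 32851 promoters. TATAAA, the TATA box, was found in 46.8% against 12.4%. AAACACA, known from H1 promoters, was in 5 of 6 H1 promoters and 6.25% of all, and the octamer ATGCAAAT in 7 of 18 H2A, 6 of 16 H2B and 1.60% of all. H4 promoters differed, with CCAAT in 3 of 12. Neighbouring genes share sequence, and 20 of the 62 windows overlap that of another member. The promoters of the H2A genes with the most and the second most UMIs and of the H1 gene with the most UMIs follow, with these motifs in capitals on either strand. The first is chr13:21833476-21833725, the second chr13:23571221-23571470 and the third chr13:21780626-21780875, all on the minus strand.
Hist1h2ap: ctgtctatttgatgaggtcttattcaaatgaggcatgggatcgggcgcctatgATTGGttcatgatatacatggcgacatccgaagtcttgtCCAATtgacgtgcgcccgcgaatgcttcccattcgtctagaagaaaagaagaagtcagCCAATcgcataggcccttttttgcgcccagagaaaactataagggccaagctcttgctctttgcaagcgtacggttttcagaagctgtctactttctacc
Hist1h2ae: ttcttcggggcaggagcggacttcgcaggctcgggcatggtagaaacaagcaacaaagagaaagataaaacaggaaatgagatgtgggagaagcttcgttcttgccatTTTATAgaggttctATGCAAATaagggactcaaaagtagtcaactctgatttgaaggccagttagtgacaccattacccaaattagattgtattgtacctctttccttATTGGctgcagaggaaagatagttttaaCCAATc
Hist1h1b: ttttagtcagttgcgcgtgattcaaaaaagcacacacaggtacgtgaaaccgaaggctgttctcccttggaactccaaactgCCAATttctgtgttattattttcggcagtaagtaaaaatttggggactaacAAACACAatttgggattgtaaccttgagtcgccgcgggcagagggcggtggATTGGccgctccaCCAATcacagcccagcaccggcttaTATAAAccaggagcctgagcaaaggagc
All 3 hold CCAAT, 2 of them hold TATAAA, and AAACACA stands in the H1 promoter and the octamer in that of Hist1h2ae.

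Histone genes gave 11461 of the UMIs of replicate 1 and 11984 of those of replicate 2, or 2015 and 2044 CPM over all barcodes. A UMI was found for 62 of the 67 genes, and 38 had 50 or more over both libraries. Hist1h1t, Hist1h2aa, Hist1h2ba, Hist1h2bq and Hist2h2aa2 had none. H2A held 48.9% and 69.0% of the histone UMIs of replicates 1 and 2, H1 20.6% and 11.5%, H4 14.7% and 7.13%, H2B 10.0% and 8.14%, and H3 5.76% and 4.27%. Since each molecule is counted once at its end, these are shares of molecules caught, not of histone made. The Hist1 cluster gave 22160 of the UMIs, Hist2 972, Hist3 258 and Hist4 55.

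One gene, Hist1h2ap, held 3510 UMIs in replicate 1 and 6506 in replicate 2, which is 30.6% and 54.3% of all histone UMIs. Hist1h2ao, its near copy, had 5 UMIs over both libraries. The next were Hist1h2ae (1099 and 1043 UMIs), Hist1h1b (792 and 473), Hist1h1e (838 and 423) and Hist1h4d (918 and 337). Hist1h2bc led H2B with 330 and 467 UMIs, and Hist1h3c led H3 with 201 and 160.

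Summed over all 67 genes, histone RNA was higher in marker-positive than in marker-free barcodes of all 3 classes in both libraries. In Ptprc-negative barcodes it stood at 1079 and 1234 CPM in the marker-free barcodes of replicates 1 and 2, and at 3731 and 3363 CPM in the marker-positive ones. In macrophage barcodes the values were 1360.03 and 1209.5 CPM against 4545 and 4629 CPM, and in T cell barcodes 1124 and 1579 CPM against 3518 and 3675 CPM. The marker-free and marker-positive sums did not overlap in any class. The fold was 3.07 in Ptprc-negative barcodes (log2 ratio 1.62 ± 0.24, SD, n = 2), 3.58 in macrophage barcodes (1.84 ± 0.14) and 2.70 in T cell barcodes (1.43 ± 0.30), and these sums were given no test. Markers of other cells moved with the same split. The 4 neutrophil markers stood at a summed 693 and 798 CPM in marker-free and 78.9 and 269.7 CPM in marker-positive macrophage barcodes, and at 895 and 883 CPM against 155 and 398 CPM in T cell barcodes. The 8 macrophage markers in Ptprc-negative barcodes went from 499 and 156 CPM to 132 and 31.7 CPM. Their part in the histone differences was not tested.

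Hist1h2ap did not carry this difference alone, since the fold of the other 66 genes was 2.53, 3.09 and 2.21 in the same order. Barcodes with exactly 1 marker UMI lay between the others. They had 3183 and 2621 CPM in the Ptprc-negative class, 3969 and 3703 CPM in the macrophage class and 3036 and 3336 CPM in the T cell class. Barcodes with 2 or more had 4059 and 3750 CPM, 5142 and 6065 CPM, and 4303 and 4067 CPM. Marker-positive barcodes were deeper: the median was 3224 and 3298 UMIs against 1549 and 1619 in the Ptprc-negative class. With every barcode thinned to 1000 UMIs, the folds were 3.17, 3.67 and 2.60.

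**Figure D1:**
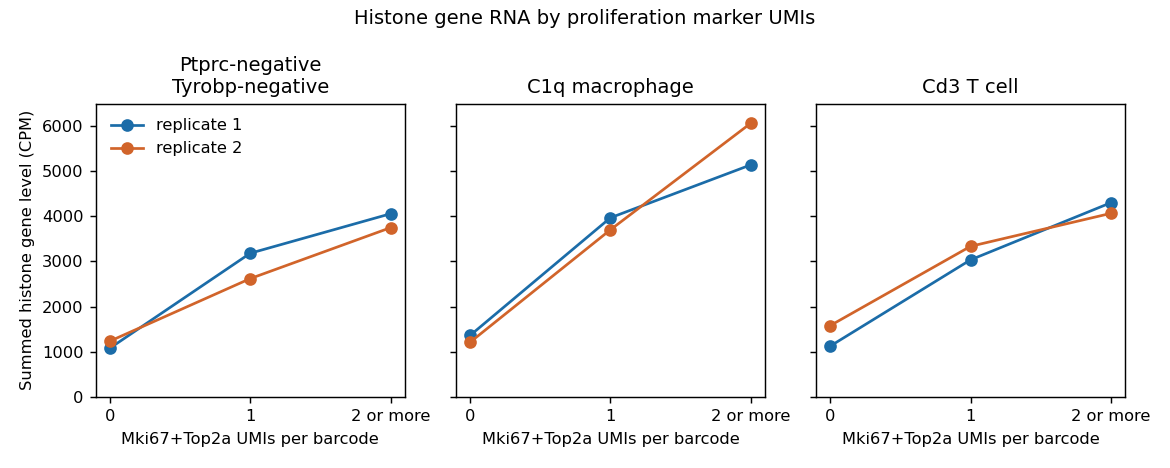
Summed histone gene level (CPM, linear axis from 0) against the number of Mki67 and Top2a UMIs per barcode, in 3 barcode classes; each point is the sum of 1 library and lines join the sums of 1 library. In all 6 lines the level is lowest at 0 UMIs (1079 to 1579 CPM) and highest at 2 or more (3750 to 6065 CPM).

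The difference was also one of how many barcodes held any histone UMI. In the Ptprc-negative class 62.3% of the marker-free barcodes of replicate 1 had one (exact 95% interval 58.0 to 66.4) and 89.9% of the marker-positive ones (83.8 to 94.2), against 56.9% (53.1 to 60.6) and 89.1% (85.0 to 92.4) in replicate 2. Thinned to 1000 UMIs, which left out 145 and 10 barcodes of replicate 1 and 169 and 12 of replicate 2, the shares were 48.1% and 71.7%, and 44.8% and 75.6%. Thinned shares in macrophage barcodes were 49.5% and 78.9% in replicate 1 and 48.3% and 82.5% in replicate 2, and in T cell barcodes 53.3% and 70.6%, and 52.8% and 77.7%. The difference was 29.9 ± 3.27 percentage points (SD, n = 2) in Ptprc-negative, 27.4 ± 5.42 in macrophage and 24.2 ± 4.62 in T cell barcodes. After thinning it was 27.2 ± 5.05, 31.8 ± 3.40 and 21.1 ± 5.41 percentage points. The intervals cover counting error only, and no class here can be taken to lack histone RNA, so the share that free RNA gives was not measured.

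The 10% of marker-free barcodes with most histone UMIs held 61.9% and 60.7% of them in the Ptprc-negative class, 62.2% and 61.3% in the macrophage class and 56.7% and 56.8% in the T cell class. In marker-positive barcodes that share was 39.5% and 35.5%, 35.8% and 40.9%, and 32.6% and 35.5%. Thinned to 1000 UMIs it was 60.2% and 55.5%, 62.2% and 58.6%, and 62.1% and 59.1% in marker-free barcodes and 37.5% and 32.7%, 33.2% and 33.4%, and 43.0% and 34.2% in marker-positive ones. Marker-free barcodes then still held fewer histone UMIs each (a mean of 1.29 against 4.5 in Ptprc-negative barcodes of replicate 1), which also bears on this share, so the 2 states are not compared in it. Within the 3 classes, the highest single barcode had 186 histone UMIs in replicate 1 and 138 in replicate 2, both marker-positive Ptprc-negative barcodes. In replicate 1 a marker-positive kept barcode outside the classes had more, at 247. Histone RNA made up 1% or more of the UMIs in 2.79% and 1.16% of marker-free Ptprc-negative barcodes and in 17.6% and 4.95% of marker-positive ones, so this share was unequal between libraries.

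Gene by gene, 36 of the 67 members had enough UMIs to be tested in the 12 sums of library, class and state, and 31 did not. Averaged over the 3 classes, 21 of the 36 were higher in marker-positive barcodes and 0 were lower at an adjusted p under 0.05 (edgeR), beside 2.32% of all 8591 genes tested called higher and 2.42% called lower. By unadjusted p, 29 members were under 0.05, all of them higher, beside 6.81% of all genes. Of the 36, 17 passed the filter only through marker-positive sums, where a gene that is high there had to be, and 9 of these were called. The other 19 passed it in marker-free sums too, and 12 of these were called. The members' median log2 fold change was 1.41, beside -0.09 over all genes tested. DESeq2 called 20 members higher, beside 2.05% of all genes, and shared 19 of them with edgeR. Without the replicate block edgeR called 5. In 26 members the marker-positive sum was above its marker-free partner in 6 of 6 pairs, beside 9.29% of all genes tested. In 13 members the 6 marker-positive sums lay above all 6 marker-free ones, beside 1.47% of all genes. These 2 counts, like the median of 1.41, include members that passed the filter only through marker-positive sums. They were not split by the filter.

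Among the H2A genes, 6 of the 11 tested were called higher, beside 2.32% of all genes tested. The same share stands beside the counts of the groups below. Hist1h2ap stood at 266, 362 and 297 CPM in marker-free Ptprc-negative, macrophage and T cell barcodes of replicate 1, and at 1343, 1635 and 1417 CPM in the marker-positive ones. In replicate 2 these values were 653, 528 and 711 CPM against 2100.1, 2399.8 and 2007 CPM. All marker-positive sums were above all marker-free ones, and the log2 fold change came to 1.86 (SE 0.13; adjusted p = 3.61e-07 in edgeR). Hist1h2ae, whose end is its own, stood at 69.6, 119 and 70.8 CPM against 379, 595 and 417 CPM in replicate 1, and at 88.9, 106 and 130.3 CPM against 321, 435 and 269 CPM in replicate 2. Its groups did not overlap either, at a fitted fold of 1.86 on the log2 scale (SE 0.17, edgeR adjusted p = 1.06e-05).

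Of the other H2A genes, Hist1h2ak (log2 fold change 2.31, SE 0.58), Hist1h2an (2.11, SE 0.35), Hist1h2ab (1.73, SE 0.26) and Hist2h2ac (1.47, SE 0.23) were called higher. The sums of Hist1h2ab ran from 12.5 to 25.2 CPM in marker-free and from 38.9 to 110.1 CPM in marker-positive barcodes, without overlap. Hist1h2ak was scarce, at 0.642 to 3.91 CPM against 4.53 to 19.4 CPM. It and Hist1h2an are among the members tested only through their marker-positive sums, and 74.3% and 51.5% of the words at their ends occur in other genes. Hist1h2ac (0.64, SE 0.35), Hist2h2aa1 (0.56, SE 0.27) and Hist3h2a (-0.19, SE 0.24) were not called. Hist3h2a was higher in marker-positive barcodes in 2 of 6 pairs, and its sums ran from 8.60 to 33.2 CPM and from 4.31 to 44.0 CPM.

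The H2B genes were divided. Hist1h2bn (log2 fold change 2.04, SE 0.44), Hist1h2bm (1.90, SE 0.43), Hist2h2bb (1.73, SE 0.32), Hist1h2bj (1.59, SE 0.36) and Hist1h2bb (1.5, SE 0.27) were called higher, 5 of the 9 tested. All of these but Hist2h2bb were tested only through their marker-positive sums, and the end of Hist1h2bn is wholly shared with other genes. Hist1h2bb ran from 6.85 to 13.3 CPM against 18.1 to 60.1 CPM and Hist1h2bj from 4.01 to 16 CPM against 20.4 to 45.9 CPM, both without overlap. Hist1h2bm rested on few molecules and varied with the library, with a log2 fold change of 1.74 in replicate 1 alone and 3.44 in replicate 2 alone. Hist1h2bc, the H2B gene with most UMIs, has an annotated transcript of 2 exons (chr13:23684199-23692908, plus strand) with no stem-loop. It stood at 82.9, 65.5 and 59.4 CPM against 28.7, 51.2 and 64.4 CPM in replicate 1 and at 104, 50.6 and 52.6 CPM against 92.8, 60.5 and 42.1 CPM in replicate 2. The ranges overlapped, the marker-positive sum was higher in 2 of 6 pairs, and the log2 fold change was -0.40 (SE 0.23, edgeR adjusted p = 0.4). H2B as a group had a summed fold of 1.58, 2.10 and 1.98 in Ptprc-negative, macrophage and T cell barcodes, against 3.87, 4.22 and 3.37 for H2A. Hist1h2bc gave 797 of the 2124 H2B UMIs and Hist1h2ap 10016 of the 13872 H2A UMIs, and over the genes tested the median log2 fold change was 1.59 for H2B and 1.54 for H2A. Both medians include members that passed the filter only through marker-positive sums, so the 2 groups are not compared by them.

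**Figure D2:**
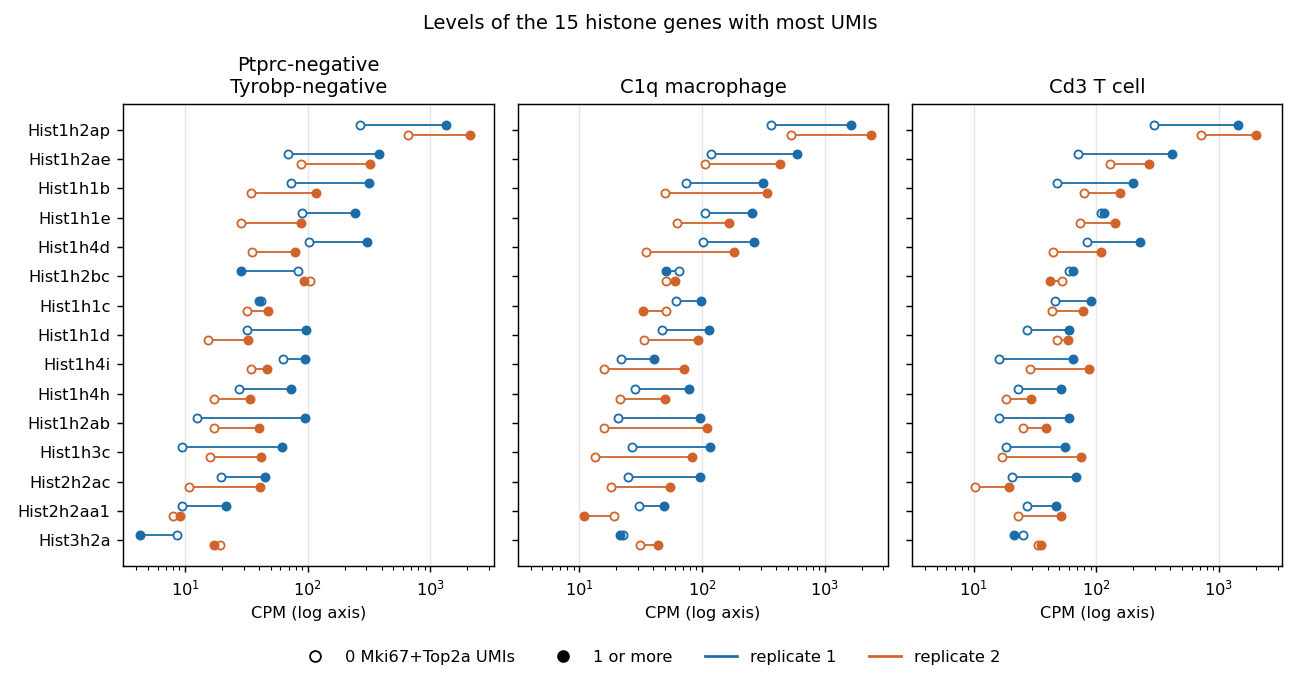
Level in CPM (log axis) of the 15 histone genes with most UMIs in marker-free barcodes (open circles) and marker-positive barcodes (filled circles) of 3 classes; each line joins the 2 sums of 1 library. Hist1h2ap, Hist1h2ae and Hist1h1b lie higher in all 6 pairs without overlap, while Hist1h2bc and Hist3h2a lie higher in 2 of 6.

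The H3 genes had the fewest UMIs, and 5 of the 7 tested were called higher. Hist1h3c stood at 9.38, 27.0 and 18.3 CPM against 61.7, 115 and 55.8 CPM in replicate 1, and at 16, 13.5 and 17.1 CPM against 41.5, 82.6 and 74.5 CPM in replicate 2. Its groups did not overlap, and its log2 fold change was 1.89 (SE 0.23, edgeR adjusted p = 0.000135). Hist1h3i (1.68, SE 0.41), Hist1h3b (1.46, SE 0.38), Hist1h3e (1.33, SE 0.28) and Hist1h3f (1.25, SE 0.34) were called too. The ends of Hist1h3e and Hist1h3f are wholly shared with other genes and that of Hist1h3i to 78.2%, and Hist1h3i, Hist1h3b and Hist1h3f were tested only through their marker-positive sums. DESeq2 did not call Hist1h3b (adjusted p = 0.0518) or Hist1h3f (adjusted p = 0.0952). Hist1h3a was not called (0.92, SE 0.48).

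Of the H4 genes, 3 of the 4 tested were called higher. Hist1h4d stood at 103, 103 and 84.5 CPM against 304, 264 and 228 CPM in replicate 1, and at 35.4, 34.9 and 44.6 CPM against 79.2, 182 and 110.1 CPM in replicate 2. Each marker-positive sum was above its partner, but the libraries were so unequal that the 2 ranges overlapped. Its log2 fold change was 1.36 (SE 0.19, edgeR adjusted p = 0.000334). Hist1h4i (1.05, SE 0.28) and Hist1h4h (1.01, SE 0.21) were called, and Hist1h4c was not (0.94, SE 0.30, edgeR adjusted p = 0.0957).

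Linker histone H1 genes, whose products bind DNA between nucleosomes, differed among themselves, with 2 of the 5 tested called higher. Hist1h1b stood at 72.7, 73.9 and 48.0 CPM against 319, 315 and 198 CPM in replicate 1 and at 34.8, 49.5 and 78.9 CPM against 118, 341 and 155 CPM in replicate 2. Its groups did not overlap, and its log2 fold change was 1.76 (SE 0.23, edgeR adjusted p = 0.000221). Hist1h1e was called with 0.99 (SE 0.22, edgeR adjusted p = 0.0124), but T cell barcodes of replicate 1 stood at 109.6 against 116 CPM. Hist1h1d was higher in 6 of 6 pairs with 0.92 (SE 0.27) and missed the threshold (edgeR adjusted p = 0.0627). Hist1h1c stood at 41.4, 61.0 and 45.7 CPM against 40.2, 98.1 and 90.2 CPM in replicate 1 and at 32.1, 50.6 and 43.4 CPM against 47.5, 33.0 and 77.7 CPM in replicate 2. These ranges overlapped, 4 of 6 pairs were higher, and the log2 fold change was 0.37 (SE 0.19, edgeR adjusted p = 0.354).

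**Figure D3:**
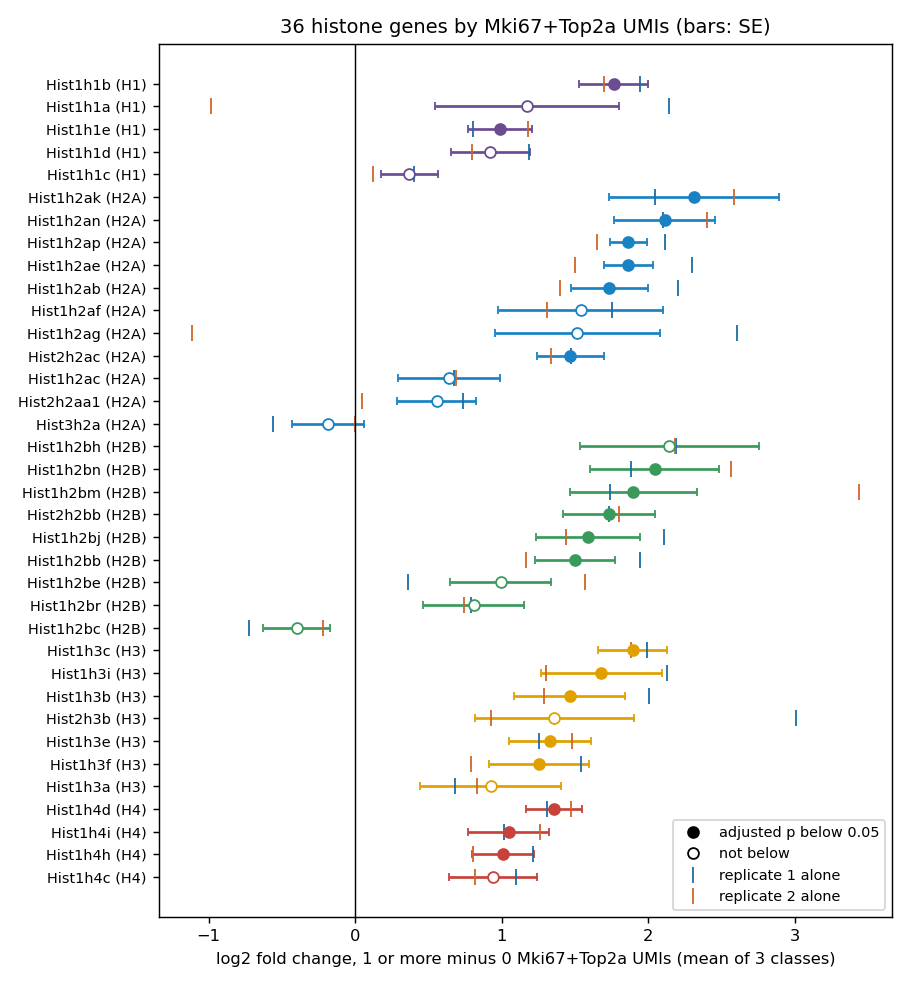
Log2 fold change of marker-positive against marker-free barcodes, averaged over 3 classes, for the 36 histone genes tested, ordered by histone group; bars are the SE of the edgeR fit, filled circles have an adjusted p under 0.05, and ticks give the value from 1 library alone. The called genes lie between 0.99 and 2.31, and Hist1h2bc (-0.40) and Hist3h2a (-0.19) lie below 0.

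The length of the annotated transcript beyond the stem-loop was set beside these values as a description. Of the 22 genes that end within 100 bases of it, 12 were tested and 9 called higher. Of the 22 with a longer end, 13 were tested and 6 called, and of the 23 with no stem-loop in the annotation, 11 were tested and 6 called. Of all genes tested, 2.32% were called higher. These counts include members that passed the filter only through marker-positive sums, so the sets are not compared by them. The genes that were not called occurred in each of these sets: Hist2h2aa1 with 35 bases beyond the stem-loop, Hist1h1c with 840, Hist3h2a with 1643 and Hist1h2bc with no stem-loop.

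Class by class, the tests had less to work with. They come from the same fit, whose spread is shared by all 12 sums because there are only 2 libraries. Their p-values therefore do not measure the variation inside a single class. In Ptprc-negative barcodes 10 members were called higher, beside 0.815% of all genes: Hist1h2ap (log2 fold change 1.90, SE 0.21), Hist1h2ae (2.04, SE 0.28), Hist1h1b (1.87, SE 0.38), Hist1h4d (1.28, SE 0.30), Hist1h2ab (1.97, SE 0.40), Hist1h3c (1.85, SE 0.38), Hist2h2ac (1.46, SE 0.34), Hist1h2an (2.69, SE 0.53), Hist1h3b (2.28, SE 0.55) and Hist1h2bh (3.74, SE 0.91). DESeq2 called the first 6 of these, beside 0.419% of all genes. The last 3 were tested only because their marker-positive sums passed the filter on low counts. Single libraries gave Hist1h2ab 2.79 and 1.11, Hist1h3c 2.58 and 1.28, and Hist1h2bh 4.34 and 3.02, in replicates 1 and 2. In macrophage barcodes 6 members were called higher, beside 0.384% of all genes: Hist1h1b (2.23, SE 0.40), Hist1h2ab (2.26, SE 0.43), Hist1h3c (2.08, SE 0.38), Hist1h2ae (2.02, SE 0.29), Hist1h2ap (2.0, SE 0.22) and Hist1h4d (1.58, SE 0.33). DESeq2 called these 6 as well, beside 0.512% of all genes, and Hist1h4d stood at 1.19 in replicate 1 alone and 2.18 in replicate 2 alone.

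In T cell barcodes Hist1h2ap alone was called (1.69, SE 0.22, edgeR adjusted p = 0.00347), beside 0.14% of all genes, and DESeq2, which called 0.291% of all genes higher, also called Hist1h2ae. The fold of Hist1h2ae there on the log2 scale was 1.53 (SE 0.30, edgeR adjusted p = 0.0627) and that of Hist1h3c 1.75 (SE 0.46, edgeR adjusted p = 0.245). Without the T cell barcodes that held 3 or more C1q UMIs, edgeR called 0 members in this class, with 3 at an unadjusted p under 0.05. That left 12 and 37 marker-positive T cell barcodes in replicates 1 and 2, where Hist1h2ap stood at 983 and 2225 CPM against 273 and 849 CPM in the marker-free ones (fitted log2 fold 1.21, SE 0.27, edgeR adjusted p = 0.152). The classes were also compared directly. No member's difference between marker-positive and marker-free barcodes was called different between Ptprc-negative and macrophage barcodes, beside 0.105% of all genes called. At an unadjusted p under 0.05 there were 0 members, beside 401 of all 8591 genes. Between T cell and macrophage barcodes 0 members were called, beside 0.0% of all genes, and between T cell and Ptprc-negative barcodes 0, beside 0.128%. Unadjusted p was under 0.05 for 1 member in each, beside 197 and 394 of all 8591 genes. DESeq2 called 0 members in each comparison, beside 0.291%, 0.0% and 0.244% of all genes called. Its unadjusted p was under 0.05 for 0, 1 and 0 members, beside 214, 57 and 203 of all 8591 genes. For Hist1h2ap the 3 differences were -0.10 (SE 0.30), -0.31 (SE 0.30) and -0.21 (SE 0.30) on the log2 scale.

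Among marker-free barcodes few members were called different between the classes. Against macrophage barcodes, Ptprc-negative barcodes had more Hist1h4i RNA, at 63.3 and 34.8 CPM against 21.8 and 15.8 CPM (log2 difference 1.48, SE 0.43, edgeR adjusted p = 0.0119). They had less Hist2h2aa1 RNA, at 9.38 and 8.02 CPM against 30.8 and 19.1 CPM (-1.35, SE 0.43, edgeR adjusted p = 0.0196). Neither pair of groups overlapped. These are 2 of the 36 members, beside 19.4% of all genes called higher and 20.3% called lower. Of the 36, 17 passed the filter only through marker-positive sums and were scarce in marker-free ones. The low share called is therefore not read as a result about the members. DESeq2 called Hist1h4i only, beside 13.1% of all genes called higher.

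T cell barcodes had more Hist2h2aa1 (27.4 and 22.9 CPM), Hist1h4c (20.6 and 17.1 against 10.2 and 4.68 CPM) and Hist1h3a (16 and 12.6 against 2.35 and 2.01 CPM) than Ptprc-negative barcodes. The log2 differences were 1.37 (SE 0.47), 1.27 (SE 0.47) and 2.47 (SE 0.85), 3 of 36 members called higher beside 18.0% of all genes. Those of Hist1h3a rest on 3 UMIs in each library in Ptprc-negative barcodes. DESeq2 called 0 members here, beside 13.8% of all genes called higher. It had 3 members at an unadjusted p under 0.05, beside 2786 of all 8591 genes. These T cell barcodes carry the macrophage markers given above, and Hist2h2aa1 was high in macrophage barcodes as well. Without C1q-positive T cell barcodes edgeR called Hist1h4c only, and with all deposited barcodes 0 members, with 6 at an unadjusted p under 0.05 (edgeR adjusted p = 0.0528, 0.0782 and 0.0563 for Hist2h2aa1, Hist1h4c and Hist1h3a). Between T cell and macrophage barcodes edgeR and DESeq2 each called 0 members, beside 0.652% of all genes called by edgeR and 0.489% by DESeq2. Each had 1 member at an unadjusted p under 0.05, beside 524 and 268 of all 8591 genes.

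Marker-free barcodes of the Ptprc-negative class were split further by 16 genes of DNA replication, such as the clamp Pcna, the helicase subunits Mcm2 to Mcm7 and the ribonucleotide reductase genes Rrm1 and Rrm2. Barcodes with 2 or more UMIs of these genes are called S-high. Summed histone RNA was 798 and 983 CPM in marker-free S-low barcodes and 1582 and 1618 CPM in marker-free S-high ones, in replicates 1 and 2. In marker-positive barcodes it was 3743 and 3219 CPM when S-low and 3728 and 3401 CPM when S-high. The order of the marker-free groups was the same in both libraries, and in marker-positive barcodes the S-high value was below the S-low one in replicate 1 and above it in replicate 2. S-high barcodes were deeper, with a median of 2679 and 2870 UMIs against 1433 and 1366 among marker-free ones.

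In marker-free barcodes 3 of the 26 members tested were called higher in S-high barcodes, beside 2.68% of all 6074 genes tested, and DESeq2 called the same 3 beside 0.527%. Hist1h1b stood at 31.7 and 19.9 CPM when S-low and 146 and 57.4 CPM when S-high (log2 fold change 1.85, SE 0.28, edgeR adjusted p = 1.7e-06). Hist1h2ap stood at 145 and 471 CPM against 482 and 929 CPM (1.16, SE 0.14, edgeR adjusted p = 3.33e-09), with replicate 2 when S-low just below replicate 1 when S-high. Hist1h2ae stood at 43.9 and 62.0 CPM against 116 and 129.9 CPM (1.12, SE 0.23, edgeR adjusted p = 0.000499). With every barcode thinned to 1000 UMIs the same 3 were called. In marker-positive barcodes edgeR and DESeq2 called 0 members, beside 0.609% and 0.263% of all genes called. At an unadjusted p under 0.05 there were 3 and 1 members, beside 550 and 187 of all 6074 genes. Hist1h2ap there differed by 0.14 (SE 0.13) and Hist1h1b by 0.35 (SE 0.23) on the log2 scale, and the difference between the marker-free and marker-positive folds was not tested.

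**Figure D4:**
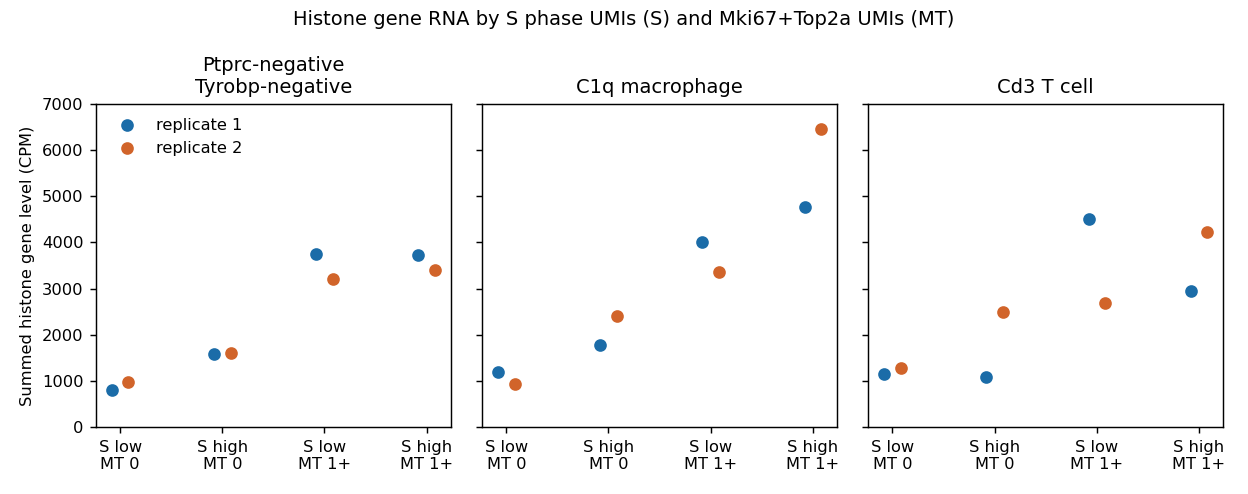
Summed histone gene level (CPM, linear axis from 0) in barcodes split by S phase gene UMIs (low: under 2, high: 2 or more) and by Mki67 and Top2a UMIs (MT), in 3 barcode classes; each point is 1 library. In the Ptprc-negative class the marker-free S-high sums (1582 and 1618 CPM) lie between the marker-free S-low sums (798 and 983 CPM) and the marker-positive sums (3219 to 3743 CPM).

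In the other classes the S split was given no test. In macrophage barcodes the 4 groups lay in the same order in both libraries, with 1205 and 943 CPM in marker-free S-low, 1783 and 2409.6 CPM in marker-free S-high, 3999 and 3351 CPM in marker-positive S-low and 4757 and 6452 CPM in marker-positive S-high barcodes. In T cell barcodes the libraries went opposite ways. Marker-free ones stood at 1145 and 1282 CPM when S-low and 1091 and 2496 CPM when S-high (43 barcodes in replicate 1), and marker-positive ones at 4507 and 2683 CPM when S-low and 2949 and 4223 CPM when S-high.

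The 2 libraries had nearly the same total of histone RNA but a different mix. Of the 38 members with 50 or more UMIs, 32 had a lower CPM in replicate 2 and 6 a higher one: Hist1h2ap, Hist1h2bc, Hist3h2a, Hist1h3b, Hist1h2br and Hist2h3b. The median ratio of replicate 2 to replicate 1 was 0.643. Of all 9664 genes with 50 or more UMIs, 26.3% were lower in replicate 2, and their median ratio was 1.27. Hist1h2ap was higher in replicate 2 in all 6 sums of class and state, by 1.42 to 2.45 times, and Hist1h4d was lower in all 6, at 0.260 to 0.687 times. With the TMM scaling of the fit these ratios were 1.19 to 2.14 and 0.199 to 0.570. Hist2h2bb was at 160 UMIs in replicate 1 and 41 in replicate 2, a ratio of 0.249. Since the series has 1 library per replicate and no second group, this difference has no replicate of its own, and what sets the libraries apart cannot be told from the labels.

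**Figure D5:**
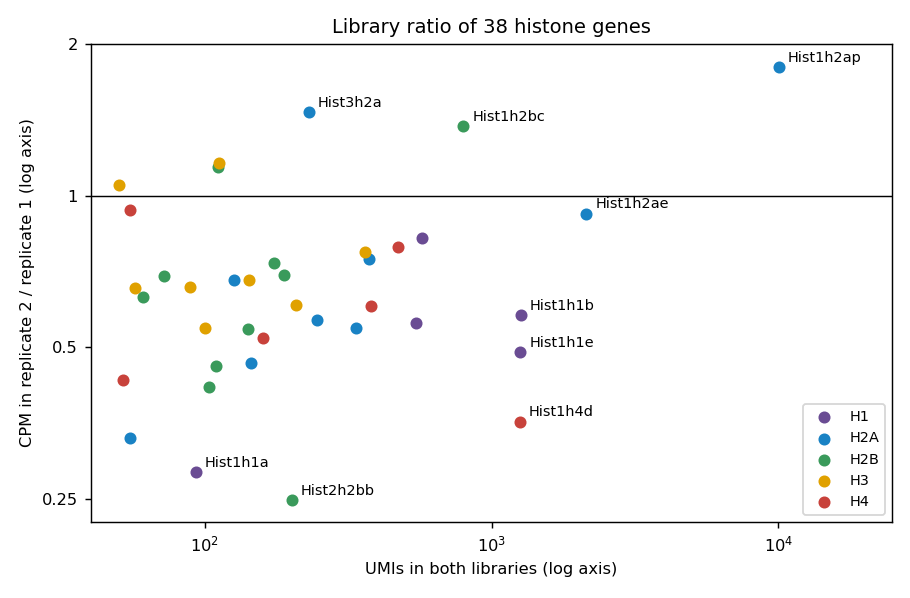
Ratio of CPM in replicate 2 to replicate 1 (log axis) against UMIs over both libraries (log axis) for the 38 histone genes with 50 or more UMIs, coloured by histone group. Most lie below 1 with a median of 0.643, while Hist1h2ap lies at 1.80 and Hist1h4d at 0.356.

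The genes that make, carry or replace these histones were followed in the same fit, averaged over the classes. Of 14 genes of histone RNA processing, 10 were tested and 0 called by edgeR or DESeq2, with 0 at an unadjusted p under 0.05. Slbp, which binds the stem-loop, stood at 0.35 (SE 0.18, edgeR adjusted p = 0.336), the cap-binding gene Ncbp2 at 0.04 (SE 0.21) and Lsm10, of the particle that cleaves histone RNA, at -0.37 (SE 0.24). Slbp ran from 25 and 46.1 CPM in marker-free to 31.6 and 60.4 CPM in marker-positive Ptprc-negative barcodes of replicates 1 and 2. The list's median log2 fold change was 0.03.

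Of 11 variant histone genes, which are made outside S phase as well, 10 were tested and 4 called higher by edgeR and by DESeq2, with a median of 0.26, beside the 2.32% and 2.05% of all genes given above. These were H2afx, the variant phosphorylated at DNA breaks (1.55, SE 0.19), Cenpa of the centromere (1.13, SE 0.19), H2afz (0.64, SE 0.10) and H2afv (0.65, SE 0.13), while H3f3a (-0.08, SE 0.10) and H3f3b (0.05, SE 0.09), which encode H3.3, were not called. Of 18 histone chaperones, 18 were tested and 3 called higher (2 by DESeq2), with a median of 0.34: Asf1b (1.34, SE 0.31), Nasp (0.67, SE 0.17) and Nap1l1 (0.47, SE 0.11). Npm1 (0.27, SE 0.09) and Set (0.32, SE 0.12) were not called.

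Of 23 S phase genes, 22 were tested and 6 called higher (5 by DESeq2), with a median of 0.61: Rrm2 (1.73, SE 0.20), Clspn (1.52, SE 0.26), Tyms (1.39, SE 0.24), Rrm1 (0.85, SE 0.22), Dut (0.73, SE 0.16) and Pcna (0.58, SE 0.14). Of 14 genes of mitosis and G2, 14 were called higher by both tools, with a median of 1.87, led among those named by Cenpf (2.57, SE 0.25). The histone members' median of 1.41 includes members that passed the filter only through marker-positive sums, so it is not ranked against the medians of these lists. Mki67 and Top2a, which set the groups, are in none of these counts, but a split by proliferation genes is not independent of lists of cell division genes.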

How the data were processed

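Single-cell RNA-seq of MC38 tumour cells was analysed from 1 matrix per library. The deposited values are raw UMI counts per gene and barcode, with no normalization, per the file headers, which name Cell Ranger 6.0.1. Per the submitters' processing notes, Seurat 4.0.1 and the build mm10 were also used. The sources used here give neither their role nor the gene annotation.

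The histone genes, the gene lists and the comparisons were chosen with earlier results of these data known. Counts were summed per library, class and state. The quasi-likelihood test of edgeR 4.0.16 (R 4.3.3) was fitted to the sums after filterByExpr, with TMM factors and the library as a block. It had 5 residual degrees of freedom, and 3 for the S phase split. The block pairs the sums by construction, since every class and state comes from each library. Adjusted p-values are Benjamini and Hochberg's over all genes tested, with a threshold of 0.05, and the genes that set the groups were left out of the counts. Levels are CPM of the summed counts. DESeq2 1.42.0 was the other tool. No doublet caller was run, and an alternative left out the 5% of barcodes with most UMIs. Named are the 25 members with most UMIs, of at least 50, and every member called, and of each other list the 3 genes with most UMIs and up to 6 called. Python 3.11.15 with scipy 1.17.1 gave the exact (Clopper-Pearson) 95% intervals. The Slbp-bound stem-loop and the words shared between transcripts were searched in GENCODE vM21, and promoters in RefSeq.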

Additional observations from a re-analysis of the deposited data

How the results depend on the processing

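The alternatives were another test (DESeq2), 2 other scalings, no filter on low counts, no replicate block, all barcodes, no high-UMI barcodes, barcodes thinned to 1000 UMIs, 2 or more marker UMIs, stricter class thresholds, and T cell barcodes with C1q left out. Averaged over classes, the 21 calls became 5 without the replicate block, 7 after thinning and 8 without C1q-positive T cell barcodes, and lay between 18 and 24 otherwise. In Ptprc-negative barcodes the 10 calls became 6 with DESeq2 or stricter classes, 16 with no filter, 2 after thinning, 4 without C1q-positive T cell barcodes and 0 without the block. The 6 macrophage calls became 9 on total UMIs, 10 with no filter and 0 without the block. They became 4 after thinning and 4 without C1q-positive T cell barcodes. The 1 T cell call became 2 with DESeq2, either other scaling, no filter, 2 or more marker UMIs or stricter classes, and 0 without the block or without C1q-positive barcodes. Of the marker-free class differences, the 2 between Ptprc-negative and macrophage barcodes became 4 on total UMIs, 5 with no filter, 1 with DESeq2 or without high-UMI barcodes and 0 without the block. After thinning they were again 2, but Hist2h2aa1 was no longer called and Hist1h2bc was called higher beside Hist1h4i. The 3 between T cell and Ptprc-negative barcodes became 5 with no filter, 1 without high-UMI or C1q-positive barcodes, and 0 with DESeq2, all barcodes or no block. After thinning none of these 3 was called and Hist1h2bc and Hist1h4i were called lower, and with 2 or more marker UMIs Hist1h3a stayed and Hist1h2bc was called lower. The 3 calls of the S phase split became 0 without the block. Leaving out C1q-positive T cell barcodes changed no Ptprc-negative or macrophage barcode, and stricter classes changed no Ptprc-negative one. The filter, the spread and the adjustment are shared by all 12 sums, so calls in a class can move when only another class changes. Thinning and left-out barcodes also remove counts from the sums they touch, and other causes were not tested.

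On total UMIs the median of all genes moved from -0.09 to 0.05, and 309 genes were called higher and 139 lower, against 199 and 208 with TMM. Hist1h2bc turned from -0.40 to 0.18 after thinning and Hist3h2a, at -0.19, to 0.0014 without replicate 1 (-0.56 without replicate 2), both uncalled. With 2 or more marker UMIs edgeR called Hist1h2bc lower. The summed log2 ratio moved to 2.12 in macrophage barcodes with 2 or more marker UMIs and to 1.74 in T cell barcodes under stricter classes. Over single libraries it lay between 1.45 and 1.79 in Ptprc-negative, 1.74 and 1.94 in macrophage and 1.22 and 1.65 in T cell barcodes. Leaving out either replicate left 1 library, which gives no test and no count of calls.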

Other observations

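The 445 and 497 kept barcodes that fell in none of the 3 classes showed the same pattern of histone RNA. Marker-free ones had 924 and 1074 CPM in replicates 1 and 2, and marker-positive ones (53 and 47 barcodes) had 5850.3 and 4206 CPM. Hist1h2ap made up 30.7% and 59.3% of the histone UMIs in these marker-positive barcodes of replicates 1 and 2, beside 30.6% and 54.3% over all barcodes. Hist4h4, the 1 gene outside the Hist1, Hist2 and Hist3 clusters, had 28 and 27 UMIs and was higher in marker-positive barcodes in 1 of 6 pairs, which was not tested.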
